A study of Mus musculus with 30 samples.

Results

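CpG clusters that lie deep inside genes, away from the ends of any gene, were examined in sperm DNA. A cluster was a run of at least 10 CpGs on chromosomes 1 to 19 in which no gap between neighbours exceeded 100 bp. A CpG entered a run when 10 or more reads, summed over both strands, covered it in at least 20 of the 30 libraries. Of 19893 such clusters, 1806 lay wholly inside a gene body of the RefSeq annotation (GRCm38) and over 5 kb from the start and the end of every gene, and these are called intragenic here. The other clusters were 17415 that overlapped a gene end or lay within 5 kb of one, and 672 between genes. The intragenic clusters held 41058 CpGs over 522497 bases in 1265 host genes, and 1714 of them had a protein-coding host. They were chosen by position and coverage, not by methylation.

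Sperm came from the cauda epididymis of 30 male C57BL/6J mice, 7 weeks old at purchase and kept in single cages, and DNA methylation was read by RRBS (reduced representation bisulfite sequencing), an assay that enriches fragments rich in CpGs. For 15 mice the drinking water, purified by reverse osmosis, held 0.9 ppm of cadmium made up from cadmium chloride, and the 15 vehicle mice had the purified water alone. All mice ate the same diet, with 10% of its calories from fat, and treatment ran for 9 weeks at an average of 0.68 mg cadmium per kg of body weight. Each library came from 1 mouse, and the title of the series names differential methylation after long cadmium exposure as its question.

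Most CpGs of mammalian DNA carry a methyl group, and the gene body is usually methylated. CpG islands, stretches dense in CpGs, are the exception: they stay free of methylation in the germ line, and many are promoters. Islands inside genes can be alternative promoters, enhancers or exons of high GC content, and some become methylated in a cell type where others stay bare. In sperm, the imprints of maternal origin are bare and those of paternal origin are methylated.

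The sequences that show this contrast best are those just before alternative transcription starts that lie inside a host gene and overlap a cluster. Each sequence below is the 250 bases before a start listed by RefSeq on GRCm38.p6, 5′ to 3′ on the gene's strand, and the capitals mark the CpGs that belong to the cluster. The first 3 lay in unmethylated clusters: Zfp800 (a zinc finger protein, chr6:28261925-28262174, minus strand), which had the most CpGs of all intragenic clusters, Slc39a10 (a zinc importer, chr1:46853619-46853868, minus strand) and Dnmt1 (the maintenance DNA methyltransferase, chr9:20952624-20952873, minus strand). The other 3 were the exceptions, chosen after their levels were seen, because their clusters were not unmethylated although they covered a start: Prkcz (an atypical protein kinase C, chr4:155345790-155346039, minus strand), Slc25a25 (a mitochondrial carrier, chr2:32424067-32424316, minus strand) and Slc6a9 (a glycine transporter, chr4:117849100-117849349, plus strand).
Zfp800: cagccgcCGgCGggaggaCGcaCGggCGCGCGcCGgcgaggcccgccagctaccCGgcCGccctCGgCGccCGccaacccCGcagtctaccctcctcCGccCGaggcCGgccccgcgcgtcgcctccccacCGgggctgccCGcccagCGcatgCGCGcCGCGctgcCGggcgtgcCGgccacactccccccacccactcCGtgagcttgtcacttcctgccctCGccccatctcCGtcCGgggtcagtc
Slc39a10: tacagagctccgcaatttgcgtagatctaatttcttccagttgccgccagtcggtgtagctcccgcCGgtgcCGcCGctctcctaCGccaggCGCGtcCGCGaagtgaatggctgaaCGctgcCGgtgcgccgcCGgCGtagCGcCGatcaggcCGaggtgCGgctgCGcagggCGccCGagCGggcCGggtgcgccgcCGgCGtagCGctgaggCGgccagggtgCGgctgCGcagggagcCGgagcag
Dnmt1: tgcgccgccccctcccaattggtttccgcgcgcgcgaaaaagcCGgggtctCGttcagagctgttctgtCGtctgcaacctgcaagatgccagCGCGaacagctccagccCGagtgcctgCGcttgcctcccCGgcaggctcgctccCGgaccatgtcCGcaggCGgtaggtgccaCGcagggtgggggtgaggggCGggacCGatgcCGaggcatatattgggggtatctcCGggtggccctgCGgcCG
Prkcz: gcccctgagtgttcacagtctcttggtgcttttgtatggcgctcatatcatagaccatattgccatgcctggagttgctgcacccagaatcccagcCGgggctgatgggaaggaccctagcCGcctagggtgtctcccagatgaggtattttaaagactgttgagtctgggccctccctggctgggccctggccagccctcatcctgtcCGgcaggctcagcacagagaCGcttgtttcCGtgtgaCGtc
Slc25a25: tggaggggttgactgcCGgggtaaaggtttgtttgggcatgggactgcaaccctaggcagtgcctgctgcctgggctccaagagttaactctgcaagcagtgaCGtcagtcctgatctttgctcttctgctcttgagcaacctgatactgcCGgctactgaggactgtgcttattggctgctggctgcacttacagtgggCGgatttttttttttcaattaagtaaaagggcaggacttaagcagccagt
Slc6a9: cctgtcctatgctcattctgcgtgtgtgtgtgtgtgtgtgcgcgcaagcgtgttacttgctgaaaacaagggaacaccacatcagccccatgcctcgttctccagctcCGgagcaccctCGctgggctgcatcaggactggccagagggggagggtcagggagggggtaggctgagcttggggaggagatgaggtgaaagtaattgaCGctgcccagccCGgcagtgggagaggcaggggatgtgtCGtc
The sequences differ in how many CpGs they hold. The stretch before Zfp800 holds 38 CpGs, of which 30 were measured at a mean of 0.701%. Of 37 CpGs before Slc39a10, 28 were measured at a mean of 0.645%, and 18 of 26 before Dnmt1 at a mean of 0.291%. The stretch before Prkcz has 7 CpGs, of which 6 were measured at 15.6% to 29.6%. All 4 CpGs before Slc25a25 were measured and read 47.3% to 64.5%. Before Slc6a9, 5 of 10 CpGs were measured, at 85.2% to 97.4%.

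The libraries were not alike in 1 respect that touches some clusters, and they also differed in depth. As a check of the sperm label, windows at 11 gene ends were read for maternal germline imprints, among them Peg3, Plagl1 and Nnat. Such imprints are bare in sperm and methylated on 1 allele in body cells. The window at Inpp5f stayed at 1.74% to 5.87% in every library, with a mean of 2.68%, while the other windows averaged 13.3% to 25.4%. In their highest library those other windows reached 42.1% to 63.6%. Whether the Inpp5f window covers an imprint was not checked. All 11 had equal weight, so the Inpp5f window lowered their mean. The mean level of the 11 windows was 18.1% ± 6.37 (SD, n = 15) in cadmium libraries, with a range of 7.07% to 28.0%. Among vehicle libraries it was 15.5% ± 9.07 (SD, n = 15), with a range of 4.82% to 35.9%. It is called the imprint level here, and 3 libraries, 1 cadmium and 2 vehicle, were above 25%. The control region of H19, a paternal imprint, had only 4 CpGs with enough reads. Its median over the libraries was 89.6%, with a range of 56.7% to 100%. Total coverage was 53591172 to 94090975 reads summed over cytosines. It averaged 67305335 ± 7264614 in cadmium and 74103801 ± 11357477 in vehicle libraries (SD, n = 15 each), so vehicle libraries were deeper in the mean. The median coverage of a CpG was 47.7 reads in unmethylated, 46.3 in partly methylated and 46.6 in methylated intragenic clusters.

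Most intragenic clusters were unmethylated, and the rest were methylated or partly methylated in similar numbers. The level of a cluster is the mean over its CpGs in a library, and its class was set by the mean of the 30 libraries: unmethylated under 20%, methylated over 80% and partly methylated between. Of the 1806 clusters, 1123 (62.2%) were unmethylated, 363 (20.1%) methylated and 320 (17.7%) partly methylated. A mean of 0 to 10% was found in 1069 clusters and a mean of 90 to 100% in 294. Without the 3 libraries of high imprint level the shares were 63.2% unmethylated and 20.7% methylated.

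The other clusters divided differently. At gene ends 94.0% of clusters were unmethylated, 3.89% partly methylated and 2.12% methylated. Between genes the shares were 51.2%, 24.7% and 24.1%. The intragenic shares thus lay nearer to those between genes. Clusters of 1 library share their source, so these shares are descriptions and carry no test.

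The unmethylated clusters were the steadiest between libraries. Their median level was 0.701% and the median SD of a cluster over the libraries was 0.933 percentage points. Methylated clusters had a median of 95.3% and a median SD of 4.01 points. Partly methylated clusters had a median of 42.3% and a median SD of 18.3 points, so the same cluster could be low in one mouse and high in another.

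Class followed the number of CpGs in the cluster. Unmethylated clusters had a median of 21 CpGs with a median spacing of 8 bp, partly methylated ones 12 CpGs at 12.75 bp, and methylated ones 11 CpGs at 15 bp. Of the 881 clusters with 10 to 14 CpGs, 37.5% were unmethylated and 35.4% methylated. With 15 to 19 CpGs, 71.2% were unmethylated, with 20 to 29 CpGs 84.4%, with 30 to 49 CpGs 96.4%, and with 50 or more 98.7%, and none of those 154 largest clusters was methylated. The other clusters of the genome rose from 79.98% unmethylated at 10 to 14 CpGs to 99.7% at 50 or more, so the gap to the intragenic ones was widest among the smallest clusters. Just outside the size limit, 470 runs of 9 CpGs had a median level of 73.4%, and just inside it, 332 clusters of 10 CpGs had a median of 69.0%. Just outside the distance limit, 297 clusters at 4 to 5 kb from a gene end had a median of 1.92%, and 183 clusters at 5 to 6 kb had a median of 1.44%.

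**Figure D1:**
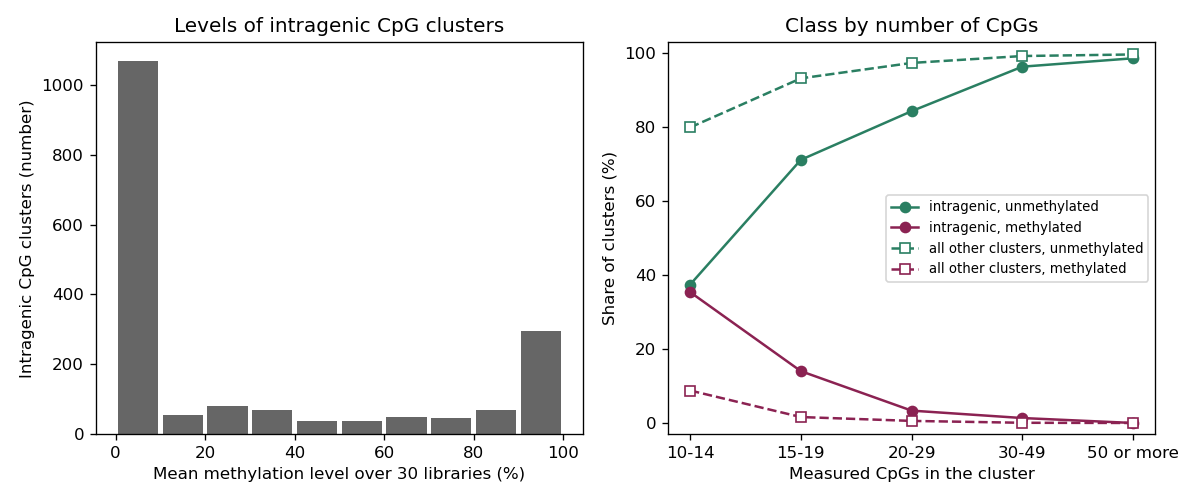
Left, number of intragenic clusters by mean methylation level over 30 libraries, in bins of 10 points; right, share of clusters that were unmethylated or methylated by number of CpGs, for intragenic clusters (filled circles) and all other clusters (open squares). The left panel has 1069 clusters in the lowest bin and 294 in the highest, and the unmethylated share of intragenic clusters rises from 37.5% to 98.7%.

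The 5 unmethylated clusters with the most CpGs lay in Zfp800, Enah, Rreb1, Cdyl and Ahdc1. Zfp800 had 165 CpGs over 1308 bp (chr6:28260941-28262248), and its level ran from 0.0616% to 1.51% over the 30 libraries with a median of 0.536%. Enah, an actin regulator, had 163 CpGs (chr1:182019341-182020514) with a lowest library of 0.0699%, a median of 0.307% and a highest of 2.15%. Rreb1 cluster 1, in the gene of a zinc finger transcription factor, had 150 CpGs and a highest library of 1.09%. Cdyl, a chromodomain protein, had 141 CpGs and a highest library of 1.24%, and Ahdc1 cluster 1, in the gene of an AT-hook protein, had 129 CpGs and a highest library of 1.33%. In these 5 clusters no library of either group left the bottom of the scale.

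The methylated clusters with the most CpGs were smaller. Kif26a cluster 2, in a kinesin family gene, had 36 CpGs (chr12:112175570-112176166) and ran from 90.7% to 99.6% with a median of 95.9%. Pxdn, which encodes peroxidasin of the extracellular matrix, had 31 CpGs at 92.3% to 100%. Rbfox3 cluster 2, in the gene of a neuronal splicing factor, had 30 CpGs at 80.4% to 98.0%. Zbtb7a, a transcriptional repressor, had 26 CpGs at 80.9% to 97.8%, and Zfp334 cluster 2, in a zinc finger gene, had 25 CpGs at 93.4% to 100%. Every library of these 5 clusters was above the 80% limit.

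Nearly all clusters at alternative starts were bare. The RefSeq table of promoter windows, each 300 bases from 250 before to 50 after a start, listed a start for the host of 1429 intragenic clusters. Of these, 318 clusters, in 295 genes, overlapped such a window, and 315 of them (99.1%) were unmethylated, 309 under 5%. Of the 1111 clusters that overlapped none, 52.3% were unmethylated, 22.1% partly methylated and 25.6% methylated. The median distance to the nearest listed start was 672 bp for unmethylated clusters, 21156 bp for partly methylated and 25203 bp for methylated ones.

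Clustered CpGs close to an internal start were bare, but the profile does not place an edge of the bare zone. From 2 kb before a start to 1 kb after it, the mean level of the CpGs in each distance bin was at most 1.27%. It was 8.03% from 1 to 2 kb after the start and 25.3% from 2 to 5 kb after it, each over 28 clusters. From 5 to 2 kb before the start it was 14.3%, over 18 clusters. The outer bins rest on few clusters, as does the bin from 2 to 1 kb before the start, with 17. In each outer bin the median CpG was under 3%, so a minority of CpGs carried the rise.

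**Figure D2:**
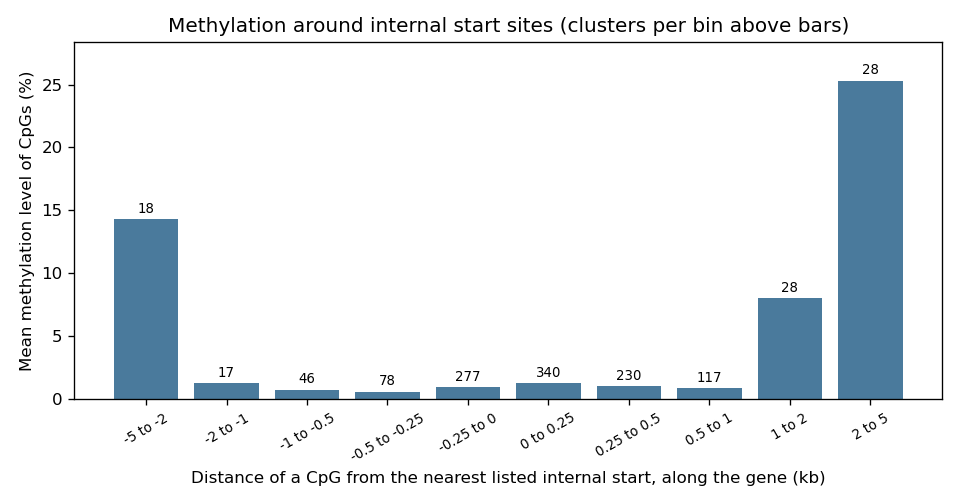
Mean methylation level of CpGs of intragenic clusters (percent, over 30 libraries) by distance from the nearest listed internal start, negative before the start, with the number of clusters above each bar. The bars from 2 kb before to 1 kb after the start stay at or below 1.27%, and the last bar reaches 25.3%.

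Those windows were rich in CpGs. The 342 internal windows that overlapped an unmethylated intragenic cluster had a median of 26 CpGs and a GC content of 67.5%, and 80.7% of them held a GC box, the letters GGGCGG on either strand. The letters TATAAA, searched on both strands, were in 2.34% of them. The 1787 internal windows that overlapped no intragenic cluster had a median of 4 CpGs, a GC box in 15.7% and TATAAA in 15.9%, and in all 31396 windows of the table the shares were 36.0% and 13.6%. RRBS covers CpG-rich fragments and a cluster needs 10 CpGs, so part of this contrast is set by the assay and the rule. A match to these letters does not show that a factor binds there.

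The 3 clusters that covered a start without being unmethylated differed from each other. The Slc25a25 cluster had 10 CpGs (chr2:32423919-32424300), and it ran from 14.3% to 87.9% in cadmium libraries with a median of 51.6%, and from 21.8% to 96.6% in vehicle libraries with a median of 67.3%. The groups overlapped over most of that range. Prkcz had 28 CpGs and ran from 14.8% to 45.9% in cadmium libraries and from 16.0% to 39.6% in vehicle libraries. Slc6a9 had 11 CpGs and was at 77.3% or more in every library, with a median of 95.9%.

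Many bare clusters had no listed start nearby. Of the 896 unmethylated clusters whose host had one, 338 (37.7%) lay over 5 kb from every listed start, with a median of 18 CpGs and a median level of 0.979%. The 6 with the most CpGs were Ahdc1 cluster 1 with 129, Agap3 cluster 1 with 123, Zbtb46 cluster 1 with 122, Rbfox3 cluster 1 with 107, Sobp with 101 and Chd9 cluster 2 with 96. Their means over the libraries were 0.510% to 1.33%.

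Clusters also differed in their place along the host. Unmethylated clusters lay at a median of 38.8% of the way from the start of the host to its end, partly methylated ones at 57.9% and methylated ones at 62.7%. In the first 20% of the host lay 23.9% of unmethylated but 5.61% of methylated clusters. In the last 20% the shares were 7.81% and 24.2%.

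A single host could hold both states. Of hosts with more than 1 cluster, 43 had at least 1 methylated and 1 unmethylated cluster. Neighbours up to 500 bp apart had the same class in 222 of 230 pairs (96.5%), and those 500 to 2000 bp apart in 56 of 62 pairs (90.3%). At 2 to 10 kb the share was 59.5%, and beyond 10 kb it was 48.8%. Of all intragenic clusters 62.2% were unmethylated, so unrelated pairs would often share a class too. The close pairs often share an island, so they are not separate observations.

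Zfhx3, a homeobox transcription factor, shows such a host. Its first 3 clusters (chr8:108703836-108715371) averaged 0.417%, 0.604% and 0.419%. Farther along, cluster 4 averaged 77.4% and ranged from 33.4% to 94.6% over the libraries, cluster 5 averaged 65.5% and cluster 6 averaged 94.0%. Dab2ip, a Ras GTPase-activating protein, had 7 clusters: 5 averaged 0.551% to 1.31%, cluster 4 averaged 95.2% and cluster 7 averaged 63.8%. The full cluster of Dab2ip thus lay between bare clusters on both sides.

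Other hosts with both classes had a wide bare cluster and a small full one. Ahdc1 had 129 CpGs at a mean of 0.515% and, in a second cluster of 10 CpGs, 87.2%. Rbfox3 had 107 CpGs at 0.831% and 30 at 91.3%. Stag1, a cohesin subunit, had clusters at 0.667%, 0.413% and 88.2%. In each of these hosts the ranges of the bare and the full clusters over the libraries were far apart, the nearest values being 6.84% and 56.9% in Stag1.

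The other hosts with the most clusters were Skor2, Gata4 and Ebf3, and 23 of their 24 clusters were unmethylated. Skor2, a transcriptional corepressor of the developing nervous system, had 10 clusters (chr18:76853187-76861071), all unmethylated at means of 0.437% to 2.18%. Gata4, a transcription factor of heart and gonad, had 8 at 0.622% to 7.74%. Ebf3, a neural transcription factor, had 6, of which 5 averaged 0.265% to 2.63% and 1, with 12 CpGs, averaged 77.0%.

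The lists of host genes divided unevenly. The lists below took genes by how their symbols start, and the synapse list also took named genes. A listed gene therefore need not have the function that the list is named for. Developmental transcription factors held 111 clusters, of which 84 (75.7%) were unmethylated, 15 partly methylated and 12 methylated, beside 62.2% unmethylated over all intragenic clusters. Satb1 (0.472%), Pax2 cluster 3 (0.549%), Pax5 cluster 2 (1.10%) and Prdm11 cluster 4 (0.579%) were among their largest. Genes for synapse scaffolds and adhesion held 30 clusters, 16 of them unmethylated, among them Shank3 cluster 1 (94 CpGs, 0.822%), Rims1 cluster 2 (0.701%) and Nrxn2 cluster 1 (0.724%), while 10 were methylated. Chromatin and growth factor signalling genes held 20, of which 11 were unmethylated, such as Hdac4 cluster 1 at 0.503%. Matrix and collagen genes held 27, of which 7 were unmethylated, 11 partly methylated and 9 methylated, and Hspg2 cluster 1, in the gene of perlecan, ran from 35.3% to 98.6%. Spermatogenesis and flagellum genes held 10, of which 7 were methylated, among them Dnah17 cluster 1 (a dynein heavy chain, 96.7%) and Kit (the stem cell factor receptor, 96.7%), while Tdrd7, a Tudor protein of germ granules, was at 0.592%. These are counts of clusters that often share a gene, and none is a test of the list.

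Hosts that handle metals were nearly all bare. Of their 13 clusters in 9 genes, 12 were unmethylated (92.3%), beside 62.2% over all intragenic clusters. However, 5 of the 13 overlapped a promoter window, beside 17.6% of all intragenic clusters, and clusters at such windows were nearly all unmethylated. The part of this in the share was not tested. Slc39a8, an importer of zinc and manganese that also carries cadmium, averaged 1.03% over 18 CpGs, Slc39a10 clusters 1 and 2 averaged 0.581% and 0.518%, and Slc39a11, another member of that importer family, averaged 0.632%. Slc31a2, a copper transporter, averaged 0.406%, and the 2 clusters of Slc30a3, a zinc exporter of synaptic vesicles, averaged 1.77% and 0.759%. The calcium channel genes Cacna1c and Cacna1d, with 3 clusters and 1, averaged 0.332% to 0.648%, and Abcc2, an exporter of conjugates, averaged 12.8%. Cacna1g, a T-type calcium channel gene, was the exception at 96.7%, with a lowest library of 86.4%.

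Genes of the methylation machinery were mixed. Of their 8 clusters, 2 were unmethylated, 3 partly methylated and 3 methylated. Dnmt1 held both extremes: clusters 2 and 3 near its internal start averaged 0.936% and 0.208%, and cluster 1, 25627 bp from the nearest listed start, averaged 97.0%. The histone methyltransferase genes Kmt2b and Kmt2d averaged 95.5% and 96.4%, and the 2 clusters of Setd1b averaged 73.1% and 64.2%. The cluster in Tet1, which encodes an enzyme that oxidises methylcytosine, and in the overlapping Gm51805 averaged 72.6%.

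Imprinted hosts held 11 clusters in 6 genes, and those of Grb10, Gnas and Gab1 had the widest ranges. Grb10 encodes a growth factor receptor adaptor and has a maternal imprint inside the gene. Its 3 clusters (chr11:12025759-12026881) averaged 17.6%, 24.2% and 18.98%, and each ran from under 5% in the lowest library to over 40% in the highest. Gnas, which encodes a G protein subunit and has several imprinted starts, averaged 20.2% with a range of 0% to 49.5%. The 3 clusters of Jade1, the 2 of Begain and that of Ano1 averaged 0.460% to 0.937%. That of Gab1, which encodes a docking protein of growth factor receptors, averaged 88.0% and ran from 37.5% to 100% with an SD of 13.6 points over the libraries.

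In the mean over libraries, partly methylated clusters were intermediate at most of their CpGs rather than patchworks. Of the 320, 249 (77.8%) had at least 75% of their CpGs between 20% and 80%, and 0 had at least 25% of their CpGs under 20% together with at least 25% over 80%. Each CpG was first averaged over the libraries, so a CpG low in some mice and high in others counts as intermediate. All 11 CpGs of Acp7 averaged 28.4% to 38.2%, although its libraries ran from 0% to 100%. The makeup within single libraries was not examined. The largest partly methylated cluster was Shroom3 cluster 2, in the gene of an actin-binding protein, with 57 CpGs (chr5:92941745-92942441). It ran from 7.24% to 62.8% in cadmium libraries with a median of 24.5%, and from 5.49% to 75.2% in vehicle libraries with a median of 24.5%. Nfatc2 cluster 1, in the gene of a calcium-regulated transcription factor, had 51 CpGs and ran from 9.16% to 68.1% in cadmium and from 5.63% to 57.4% in vehicle libraries. Zfp316 ran from 8.25% to 69.0% over all libraries and Cux1, a homeobox transcription factor, from 3.22% to 70.3%. In all of these the groups overlapped almost wholly.

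The levels of these clusters moved with the imprint level of the library. Over the 30 libraries, Pearson's r with the imprint level was 0.87 for Grb10 cluster 2, 0.86 for Zfp316, 0.80 for Nfatc2 cluster 1, 0.78 for Shroom3 cluster 2, 0.75 for Cux1 and 0.64 for Gnas, and Spearman's rho was 0.85, 0.86, 0.83, 0.72, 0.77 and 0.75. For Slc25a25 r was -0.82 and rho -0.84, so that cluster was lower where imprints were higher. For Prkcz r was -0.05 and rho was -0.00022. The two-sided permutation test with 100000 resamples, adjusted over 16 relations, gave adjusted p for r of 1.45e-05 for Shroom3, Nfatc2, Zfp316, Grb10, Cux1 and Slc25a25, 0.000183 for Gnas and 0.779 for Prkcz. The raw p of the first set was 1e-05, the smallest these resamples can give, and the adjusted p for rho was 1.33e-05 to 3.43e-05 for all but Prkcz. Without the 2 libraries farthest from the median, r stayed between 0.62 and 0.85 for the first 6 and was -0.81 for Slc25a25. Within each group r was 0.53 to 0.88 in cadmium libraries and 0.61 to 0.94 in vehicle libraries for the first 6, and -0.75 and -0.88 for Slc25a25. Slc25a25 and Prkcz were chosen after their levels were seen, and Grb10 and Gnas carry imprints themselves. The same clusters moved with the share of coverage on mitochondrial DNA, with r of 0.67 to 0.85 for the first 6 and -0.87 for Slc25a25 (adjusted p at most 0.000111 by that permutation test). Its part in these levels was not tested.

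**Figure D3:**
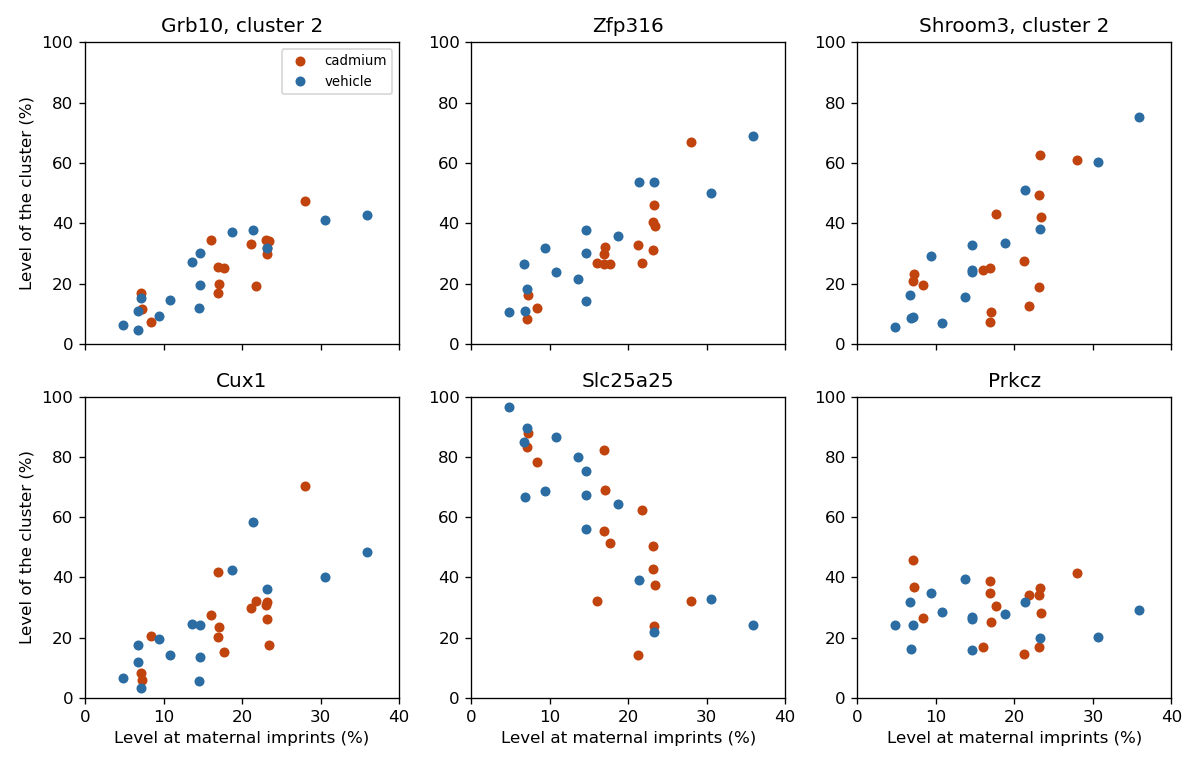
Methylation level of 6 named clusters (percent) against the level at maternal imprints of the same library (percent), 1 point per library, 15 cadmium and 15 vehicle. Grb10, Zfp316, Shroom3 and Cux1 rise with the imprint level (r of 0.87, 0.86, 0.78 and 0.75), Slc25a25 falls (r of -0.82) and Prkcz shows no slope (r of -0.05).

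The same pattern ran through the class. Of the 236 partly methylated clusters with a value in every library, r with the imprint level was over 0.5 in 137 (58.1%) and under -0.5 in 48 (20.3%). Among the 144 with a mean under 50%, 117 had r over 0.5 and 4 under -0.5. Among the 92 with a mean of 50% or more, 20 had r over 0.5 and 44 under -0.5. Within the cadmium libraries alone the counts over 0.5 and under -0.5 were 108 and 44, and within the vehicle libraries 145 and 53. Unmethylated clusters passed 0.5 in 69 of 878, and methylated ones were under -0.5 in 50 of 242. Clusters of a library share its depth and its cells, so these counts describe the libraries and carry no p.

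In the 137 clusters with r over 0.5 the mean level of a library ran from 16.7% to 67.4%. In the 48 with r under -0.5 it ran from 30.03% to 88.4%. Partly methylated clusters at gene ends had r over 0.5 in 71.5% and under -0.5 in 9.85%, and those between genes in 58.1% and 18.5%.

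The most variable clusters were small and lacked a value in some libraries. Acp7 had 11 CpGs and ran from 0% to 100% over 22 libraries, with an SD of 35.1 points. Gse1 cluster 1 had 10 CpGs within 45 bp and ran from 0% to 100% in 11 cadmium libraries and from 0% to 58.8% in 12 vehicle libraries. 2410003L11Rik, Tcf20 cluster 2 and Ephb2 had SDs of 31.4, 31.3 and 30.7 points.

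A few clusters were covered far more deeply than the rest. Gm36876 had a median of 6634 reads per CpG, Cdk8 3071, Zc3h7a 2241, Jarid2 1172 and the first cluster in Cmss1 and Filip1l 631, beside a median of 47.3 over all intragenic clusters. All 5 had intermediate or low levels, with means of 19.6%, 20.01%, 14.9%, 28.8% and 47.4%. Whether reads of near-identical copies elsewhere were placed there was not tested.

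Cadmium and vehicle sperm were then compared cluster by cluster, which is the study's own question. No intragenic cluster passed the test between the groups, which does not show that their levels were equal. Of 1793 tested intragenic clusters, 0 had an adjusted p under 0.05 in the logistic model of methylated and unmethylated reads, adjusted by the Benjamini-Hochberg method over all 19777 tested clusters, of which 0.0% passed. An unadjusted p under 0.05 was reached by 79 (4.41%), 40 higher and 39 lower in cadmium, beside 5.78% of all tested clusters, 2.76% higher and 3.02% lower. With limma on the level in percent 0 passed as well, and 72 (4.02%), 35 higher and 37 lower, had an unadjusted p under 0.05, beside 4.02% of all, 1.9% higher and 2.12% lower. The smallest adjusted p among intragenic clusters was 0.198. Without the 3 libraries of high imprint level 0 passed, and 123 of 1772 tested intragenic clusters (6.94%) had an unadjusted p under 0.05, 71 higher and 52 lower, beside 6.70% of all tested. The smallest adjusted p was then 0.106.

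The clusters with the smallest p were all unmethylated and differed by at most 1.25 points. The unmethylated control sequence read 0.0740% to 0.666% over the libraries, with means of 0.349% in cadmium and 0.397% in vehicle libraries. Several of the levels and differences named here and in the next paragraph are of that size, near the floor of the assay. Kctd7 cluster 1 (chr5:130144211-130144410), in the gene of a potassium channel tetramerisation domain protein, was at 0% in all 12 vehicle libraries with a value. In 12 cadmium libraries it had a median of 0% and a highest value of 6.12%, a difference of 1.25 points (adjusted p = 0.198). Without the highest library, cadmium 14, the difference was 0.806 points, and with CpGs of 5 reads or more it was 0.677 points (adjusted p = 0.696). Sesn1 cluster 2, in the gene of a stress-induced sestrin, reached 3.45% in cadmium libraries and 0.108% in vehicle libraries, and both medians were 0% (adjusted p = 0.202). Its difference of 0.618 points was 0.382 without cadmium 3. Idh1, the cytosolic isocitrate dehydrogenase, averaged 1.02% ± 1.10 in cadmium and 0.156% ± 0.211 in vehicle libraries (SD, n = 15 each), with highest values of 3.39% and 0.634% (adjusted p = 0.368). Cep70, a centrosomal protein, and the lncRNA Gm31615 were higher by 0.906 and 0.646 points with adjusted p of 0.348 each. Without cadmium 6, at 4.67%, the difference of Gm31615 was 0.364 points. In each of these the lowest values of both groups were 0%. With limma the adjusted p was 0.970 for each of them and for each cluster of the next paragraph.

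Lower in cadmium with the smallest p were clusters in Ildr2, Ptprn2, Nfia, Gm34147 and Zcchc4. Ildr2, an immunoglobulin-like receptor gene, had a median of 0.0490% in cadmium libraries and 1.29% in vehicle libraries, with highest values of 1.55% and 3.90% (adjusted p = 0.368). Ptprn2, a receptor-type phosphatase of secretory granules, differed by -1.15 points (adjusted p = 0.491), and by -0.757 without vehicle 9, at 7.36%. Nfia, a transcription factor, with the overlapping Gm38709, differed by -0.417 points, Gm34147 by -1.06 and Zcchc4, a methyltransferase of ribosomal RNA, by -0.806, with adjusted p of 0.567, 0.632 and 0.676. That of Nfia was -0.225 points with CpGs of 20 reads or more (adjusted p = 0.822). That of Gm34147 was -1.60 with 5 reads or more (adjusted p = 0.411) and -0.619 without vehicle 11, at 7.69%. None of these passed, and the ranges overlapped in each.

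The group means of the classes differed by less than the spread between mice. Over all intragenic clusters the mean level was 28.4% ± 1.03 in cadmium libraries and 28.0% ± 1.42 in vehicle libraries (SD, n = 15 each). Unmethylated clusters averaged 2.01% ± 0.442 and 1.95% ± 0.598 (SD, n = 15 each), and methylated ones 93.6% ± 1.59 and 93.7% ± 1.83. Partly methylated clusters averaged 47.6% ± 4.33 in cadmium libraries, from 42.3% to 59.1%, and 46.0% ± 6.16 in vehicle libraries, from 35.6% to 57.6%. The difference of 1.54 points was 2.47 without the 3 libraries of high imprint level, and from 0.709 (without cadmium 13) to 2.36 (without vehicle 4) with each library left out in turn. Vehicle 13 and vehicle 15 also moved it by over 1.5 times. That over all intragenic clusters, 0.363 points, was 0.538 without the 3 libraries. It ran from 0.0935 (without vehicle 15) to 0.548 (without cadmium 9) with each left out, and cadmium 13 moved it by over 1.5 times too. Those of the unmethylated and the methylated class, 0.0593 and -0.0964 points, changed sign in 1 and 8 of the 30 omissions. These class means take no p, since they sum over the members.

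**Figure D4:**
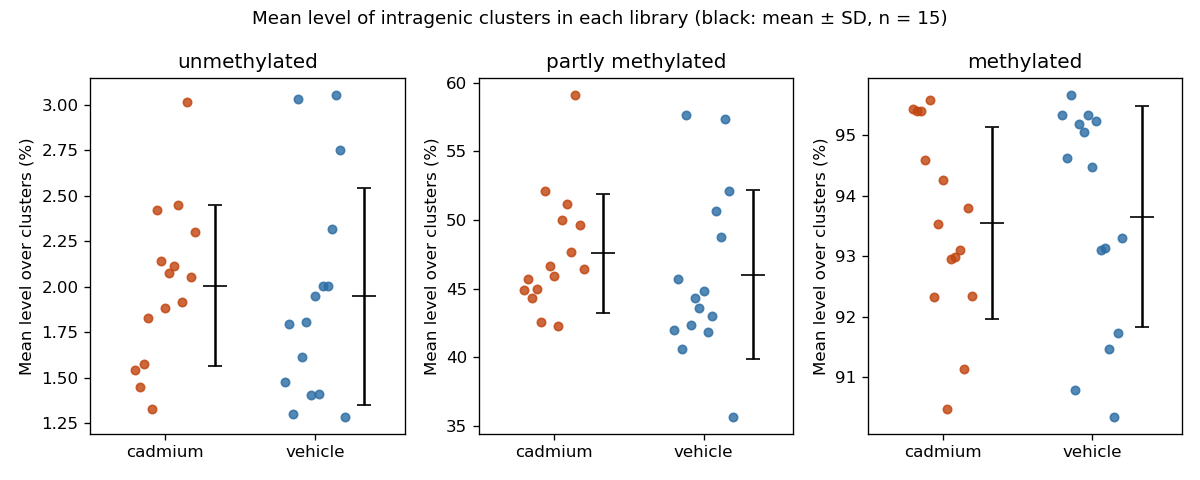
Mean methylation level (percent) over unmethylated, partly methylated and methylated intragenic clusters in each of 15 cadmium and 15 vehicle libraries, with the mean and SD of each group in black; the axes do not start at 0 and differ between panels. The groups overlap in every panel, and the partly methylated clusters average 47.6% in cadmium and 46.0% in vehicle libraries.

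The differences of 10 points or more were all among partly methylated clusters, in both directions. Of the 1806 clusters, 120 differed by 5 points or more, 106 of them partly methylated, 7 unmethylated and 7 methylated, and all 23 that differed by 10 points or more were partly methylated. The largest was Gse1 cluster 1, with a mean of 44.2% ± 40.9 (SD, n = 11) in cadmium libraries, against 24.4% ± 20.2 (SD, n = 12) in vehicle libraries (unadjusted p = 0.705). 2410003L11Rik differed the other way, 61.0% ± 34.9 (SD, n = 12) against 80.1% ± 25.4 (SD, n = 12). In both the difference was smaller than the SD of either group.

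More partly methylated clusters had a higher mean in cadmium than a lower one. Of the 320, 209 were higher and 111 lower in cadmium, with a median difference of 1.66 points, beside a difference of 2.55 points in the imprint level. The tilt was not particular to intragenic clusters. The mean over partly methylated clusters was higher in cadmium by 1.96 points at gene ends and by 1.15 points between genes, beside 1.54 points for intragenic ones. Of the 137 clusters with r over 0.5, 104 were higher in cadmium, and of the 48 with r under -0.5, 29 were lower. Without the 3 libraries of high imprint level, 215 of 320 were higher, with a median difference of 2.97 points beside 4.56 points in the imprint level. Of the 137, 120 were then higher, and their median went from 2.38 to 5.54 points. Of the 48, 44 were lower, and their median went from -0.97 to -4.51 points. The 137 and the 48 were picked by r with the imprint level over these same libraries. Their directions therefore follow in part from that choice and are no separate evidence. The part of the imprint level in these differences was not tested, and clusters of a library are not independent.

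**Figure D5:**
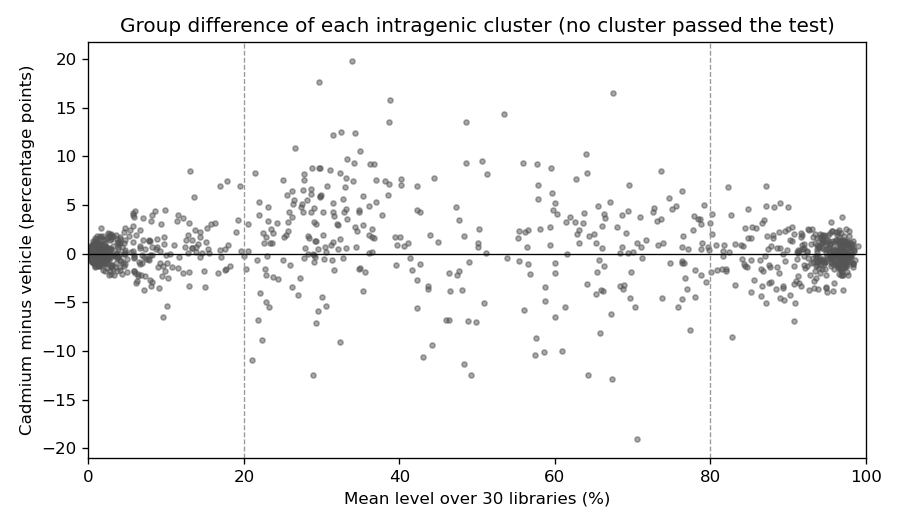
Difference between the group means (cadmium minus vehicle, percentage points) of each of the 1806 intragenic clusters against its mean level over 30 libraries (percent); dashed lines mark the class limits of 20% and 80%. Differences of 10 points or more occur only between the dashed lines, and no cluster passed the test.

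None of the gene lists held a cluster that passed. Every p here is of the logistic model on summed reads, while the levels beside it are unweighted means over libraries. Among the 13 clusters of metal handling genes 1 had an unadjusted p under 0.05, Slc39a10 cluster 2, with 0.650% ± 0.518 in cadmium and 0.385% ± 0.2505 in vehicle libraries (SD, n = 15 each, unadjusted p = 0.0283, adjusted p = 0.801). Slc39a8 averaged 0.794% in cadmium and 1.27% in vehicle libraries (adjusted p = 0.996), a difference of -0.475 points that was -0.130 without vehicle 12. Among imprinted hosts 1 of 11 had an unadjusted p under 0.05, Jade1 cluster 3 at 1.14% against 0.413% (adjusted p = 0.553), and Grb10 cluster 2 was at 25.8% ± 10.6 against 22.7% ± 13.4 (SD, n = 15 each, adjusted p = 0.980). That difference of 3.16 points was 1.61 without cadmium 13, and vehicle 3 and vehicle 15 also moved it by over 1.5 times. None of the 8 clusters of the methylation machinery had an unadjusted p under 0.05, and Setd1b cluster 2 differed most, 68.3% ± 8.58 against 60.0% ± 11.5 (SD, n = 15 each, adjusted p = 0.936). Of 111 clusters of developmental transcription factors, 4 were higher and 4 lower at an unadjusted p under 0.05, beside 5.78% of all tested clusters.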

How the data were processed

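Coverage and methylation of single cytosines were taken from 30 deposited tables, 1 per mouse, on GRCm38. The authors' tables give each cytosine's read count and methylated fraction by strand, per the file headers and values; depth is therefore known, but reads are PCR copies without molecular identifiers and intervals or coverage speak of counting error only. Bismark 0.22.3, Trim Galore 0.5.0, methylKit 1.12.0 and bcl2fastq are listed, without roles, in the submitters' processing notes. Methylated reads were the rounded product of fraction and count, which was a whole number within 0.1 save for 1 cytosine of a library at most.

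Both strands were summed, and clusters were built and placed by the rule given in the report against all 49997 genes of the RefSeq table. Exons, introns and sequences outside promoter windows were not used here. The level of a cluster in a library is the unweighted mean over its CpGs with 10 or more reads, given where at least 50% of them had such a value. Clusters were tested with a value in 10 or more libraries of each group, using a quasi-binomial logistic model (Pearson dispersion never below 1, two-sided F test, Benjamini-Hochberg over clusters of every context), checked on simulated reads. The alternative was limma 3.58.1, in R 4.3.3; the rest used Python 3.11.15 with SciPy 1.17.1. All 183018 CpG positions inside promoter windows read CG in the RefSeq sequence.

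The members and the gene lists were chosen with earlier results of these data known. Named are the 5 higher and 5 lower clusters with the smallest p (fewer than 5 passed), the 5 of each class with the most CpGs, the 5 with the largest SD, the 5 hosts with the most clusters, the 5 with both classes and the most CpGs, the clusters of imprinted, metal handling and methylation machinery hosts, and up to 5 of each other list; clusters at starts that were not unmethylated, those far from starts and the deepest were added after seeing their values. Cluster numbers run along the chromosome within a host. Replicate numbers are in the titles, but no label ties a number across the groups. Among 210 pairs of libraries within groups the lowest mean chi-square per partly methylated cluster was 27.4. Reads are PCR copies without molecular identifiers, so this value cannot show that every pair differed by more than sampling noise. Alternatives changed the minimum reads, libraries, gaps, cluster size, distance, class limits, upper coverage limit, dispersion and tool.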

Additional observations from a re-analysis of the deposited data

How the results depend on the processing

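The absence of calls held with 5 or 20 reads, all 30 libraries, other gaps, an upper coverage limit and limma. It also held in settings added after seeing the data: without the 3 libraries over 25% at maternal imprints, with protein-coding, lncRNA and antisense genes only, and in limma with the mitochondrial share. Only the logistic model without a dispersion term differed, calling 1081 clusters, 53.5% being called over all contexts, because it counts reads as independent mice. Numbers of clusters and class shares moved with the rule. With 5 CpGs or more there were 9612 clusters, 21.2% unmethylated and 53.7% methylated; with 20 or more there were 647, 92.0% and 1.85%. Over 2 kb from gene ends there were 3184 (67.6% and 16.7%), and over 10 kb 1108. Gaps of up to 50 bp gave 76.4% and 11.7%, and gaps of up to 200 bp 48.6% and 28.5%. With 5 reads the shares were 58.3% and 22.3%, with 20 reads 76.5% and 11.7%. Class limits of 10% and 90% gave 59.2% and 16.3%, and limits of 30% and 70% gave 66.7% and 22.7%. The other 51 summary results under an alternative kept their direction and side of the threshold or moved within their spread, as did all 56 differences of named clusters. Those that moved by over 1.5 times, also when each library was left out (added after seeing the data), are given in the report. Replicate numbers were not taken as pairs, since not every pair was over 0.1: same-number libraries had correlated deviations over 0.1 in 8 of 15 pairs (-0.49 to 0.85; mean 0.17, beside -0.01 for other pairs), and 2 of 15 cadmium libraries correlated best with their own number. As a share of all reads the mean differences were 0.154 points over all intragenic clusters, -0.25 unmethylated and 0.925 partly methylated, and with 20 reads that of the methylated class was 0.0592. With a replicate block limma called 0 clusters, 84 at an unadjusted p under 0.05, and the mean difference over all intragenic clusters was 0.363 points; cadmium was higher in 11 of 15 numbers, there and in the partly methylated class. Leaving out each replicate in turn was run only for the differences in the report.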
